A study of Mus musculus with 8 samples.

Results

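The 10 genes described here encode the enzymes that hydroxylate collagen chains inside the cell and crosslink collagen and elastin outside it: the lysyl oxidases Lox, Loxl1, Loxl2, Loxl3 and Loxl4, the lysyl hydroxylases Plod1, Plod2 and Plod3, and the prolyl hydroxylase subunits P4ha1 and P4ha2. They were found by gene symbol, each symbol matched 1 row, and they are 10 of the 56748 genes in the count and FPKM tables. RNA came from whole skin of male mice aged 35 weeks, 1 mouse per library. Of these, 3 carried 2 copies of the Npy allele of strain B6;129S4-Npytm2Rpa/J (NPY tet/tet, here NPY-tet), and 5 were their wild-type (WT) siblings (NPY +/+). The labels state no treatment for any mouse and name no cell type to which the allele is restricted. The series title speaks of excess neuropeptide Y and of a fibrotic response in the skin, and the comparison asks how the enzymes of collagen maturation stood in such skin.

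The label was checked on Npy, the gene of neuropeptide Y, a signalling peptide released by sympathetic nerve fibres. It stood at 304, 322 and 299.7 CPM (read counts scaled to a common library size) in NPY-tet replicates 1 to 3, against 0.159 to 0.502 CPM in WT skin. Libraries held 31370433 to 47495565 counts, and all 10 enzyme genes passed the filter on low counts. Ribosomal RNA genes took 6.44% of the counts in NPY-tet replicate 1 and 7.02% to 8.07% in WT replicates 1, 2, 3 and 5. They took 0.0388% and 0.0754% in NPY-tet replicates 2 and 3 and 0.0641% in WT replicate 4. The labels do not give this split, and the libraries are called rRNA-rich and rRNA-poor below. NPY-tet replicate 1 stood apart from the rest in its collagen genes, as described further down, so results are also given without it. All 9 keratinocyte, all 10 fibroblast and 10 of 10 skeletal muscle markers passed the filter on low counts. So did all T cell, melanocyte and Schwann cell markers, so passing does not check the tissue label. The keratinocyte markers summed to 10189 to 18247 CPM in NPY-tet and 13000 to 20842 CPM in WT skin. The skeletal muscle markers summed to 40819 to 59145 CPM in NPY-tet and 39044 to 94480 CPM in WT skin.

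Collagen is finished in steps. In the endoplasmic reticulum, prolyl hydroxylases convert prolines to hydroxyproline, which holds the triple helix together at body temperature, and lysyl hydroxylases convert some lysines to hydroxylysine, which can carry sugars and forms the sturdier crosslinks. Both enzyme groups use iron, oxygen, ascorbate and alpha-ketoglutarate. After secretion, the copper enzymes of the lysyl oxidase family turn lysines and hydroxylysines into aldehydes that join neighbouring collagen or elastin molecules, and increased crosslinking is a known feature of fibrotic skin.

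None of the 10 enzyme genes passed the test across all genes between NPY-tet and WT skin. By the quasi-likelihood test of edgeR, 0 of 10 passed an adjusted p of 0.05 (adjusted p 0.796 to 0.996), against 0.00541% of the 18495 genes tested, which is Npy alone. At an unadjusted p under 0.05 the count in this fit was also 0 of 10, against 5.98% of all genes (2.43% higher and 3.55% lower in NPY-tet skin). DESeq2 (0.299% of its genes called), limma-voom and limma on FPKM each called 0 of 10. The unadjusted count depended on the fit. With the ribosomal RNA set as covariate, Loxl1 (log2 fold change -0.93), Lox (0.66) and Loxl3 (-0.65) had an unadjusted p under 0.05 by edgeR. Without WT replicate 5, Lox (0.64), Loxl3 (-0.57) and Plod2 (0.73) did. Without NPY-tet replicate 3, Loxl1 (-0.99), Plod1 (-0.45) and Plod3 (-0.37) did. None of these passed the adjusted threshold. Further fits, among them that of the rRNA-rich libraries described below, also moved the count. The share of all genes at that unadjusted p is given for the main fit only, so counts from other fits cannot be set against 5.98%. In no gene did the 3 NPY-tet mice lie wholly above or wholly below the 5 WT mice, whereas 3.78% of all genes had such groups (1.81% higher and 1.98% lower in NPY-tet skin). Fitted values were higher in NPY-tet skin for 2 genes, Lox and Plod2, and lower for 8, against 49.3% of all genes lower, with a median log2 fold change (NPY-tet over WT) of -0.13, against 0.0041 over all genes tested. Leaving out NPY-tet replicate 1 gave a median of 0.027, leaving out replicate 2 gave -0.030, and leaving out replicate 3 gave -0.28.

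The test does not show that levels were alike, and the 95% intervals say what sizes remained possible. By width on the log2 scale, the narrowest was that of P4ha1, at 0.824 to 1.2 times the WT level. Those of Plod3 (0.707 to 1.18), Plod1 (0.685 to 1.23), P4ha2 (0.751 to 1.31) and Loxl4 (0.695 to 1.16) were wider. The widest on that scale were those of Plod2 (0.657 to 2.31), Loxl2 (0.504 to 1.51) and Loxl1 (0.437 to 1.15). For Lox the interval of 0.951 to 2.00 lay mostly above 1, and for Loxl3 the interval of 0.508 to 1.05 lay mostly below it.

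**Figure D1:**
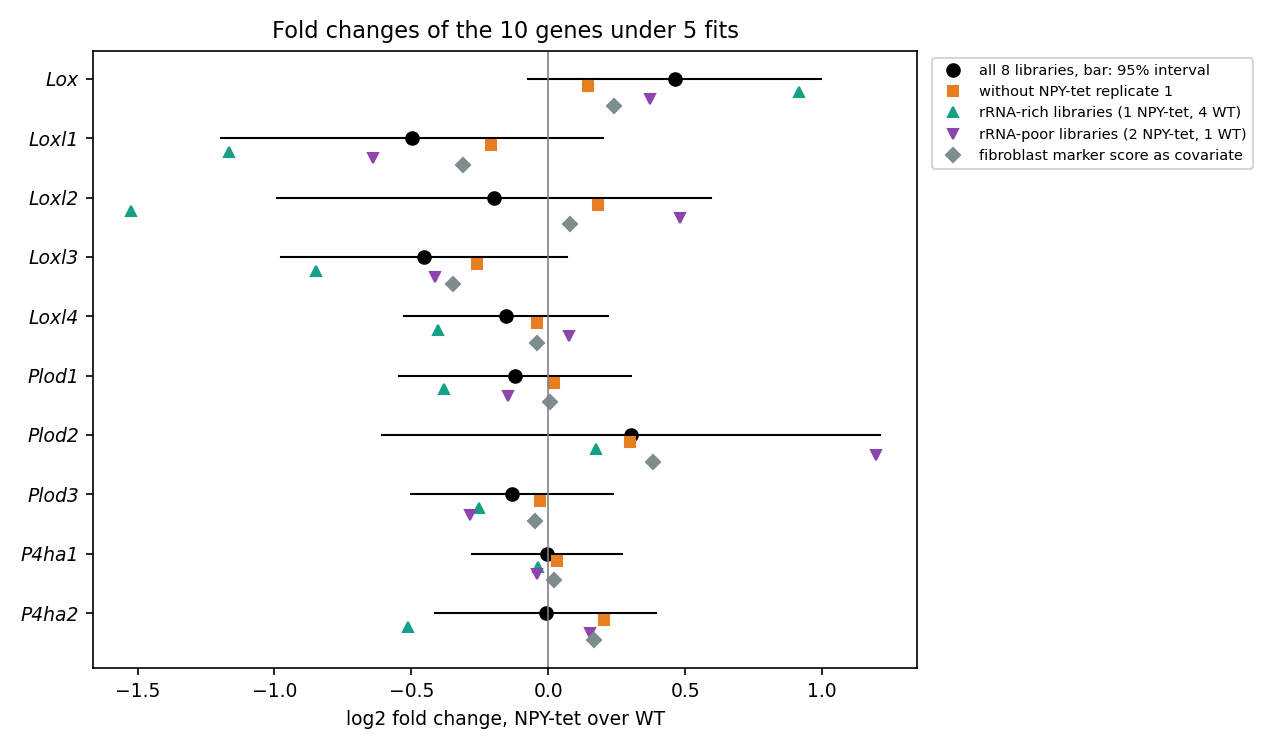
Fold changes of the 10 enzyme genes on a log2 scale, NPY-tet over WT, by edgeR. Black points with 95% intervals use all 8 libraries, and coloured markers show the same quantity without NPY-tet replicate 1, within each ribosomal RNA set, or with the fibroblast marker score as a covariate. That score includes Col1a1 and Col3a1. Every interval crosses 0, and the rRNA-rich value of Loxl2 (-1.52) and its rRNA-poor value (0.48) lie on opposite sides.

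Lox encodes lysyl oxidase itself, the founding member of the family, which acts on fibrillar collagen and elastin. The gene lies on the minus strand of chromosome 18 at 52649139 to 52662939 (mm39). It stood at 117, 59.2 and 74.5 CPM in NPY-tet replicates 1 to 3, against 49.8, 56.5, 56.6, 51.4 and 89.1 CPM in WT replicates 1 to 5. NPY-tet replicate 1 had the highest value of all 8 mice, and the groups overlapped because WT replicate 5 lay above NPY-tet replicates 2 and 3. The means were 83.6 ± 30.0 CPM in NPY-tet skin and 60.7 ± 16.2 CPM in WT skin (SD, n = 3 and 5), with a log2 fold change of 0.46 (SE 0.24, adjusted p = 0.796 by edgeR). Without NPY-tet replicate 1 the log2 fold change was 0.14. It was 0.91 within the rRNA-rich and 0.37 within the rRNA-poor libraries. Markers of the growing hair shaft, summed over 10 genes, also differed between these mice, at 2137, 4046 and 354 CPM in NPY-tet replicates 1 to 3, against 305, 9.16, 15.7, 15.3 and 6116 CPM in WT replicates 1 to 5. Their part in the Lox values was not tested.

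Loxl1 encodes an oxidase tied to elastic fibre upkeep, and it had the highest level per length of the 10 genes in both groups. The gene lies on the minus strand of chromosome 9 at 58195021 to 58220469. It stood at 38.2, 56.9 and 107 CPM in NPY-tet replicates 1 to 3, against 102, 80.4, 91.0, 127 and 74.8 CPM in WT replicates 1 to 5. NPY-tet replicates 1 and 2 lay below every WT mouse, and NPY-tet replicate 3 lay above all but WT replicate 4. The log2 fold change was -0.50 (SE 0.31, adjusted p = 0.807 by edgeR), and it was -0.99 without NPY-tet replicate 3 and -0.21 without NPY-tet replicate 1.

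Loxl2 (chromosome 14, 69846517 to 69933283, plus strand) encodes an oxidase that also acts on basement membrane collagen. It stood at 15.8, 48.9 and 50.7 CPM in NPY-tet replicates 1 to 3, against 54.9, 38.7, 38.0, 35.4 and 53.4 CPM in WT replicates 1 to 5. NPY-tet replicate 1 was thus the lowest of the 8 mice, at 0.324 times the median of the other 7, and NPY-tet replicates 2 and 3 stood above 3 of the 5 WT mice. The log2 fold change of -0.20 (SE 0.35) turned to 0.18 without NPY-tet replicate 1. Within the rRNA-rich libraries, where NPY-tet replicate 1 is the only NPY-tet mouse, Loxl2 had a log2 fold change of -1.52 and Loxl1 of -1.17 by edgeR. The spread of that lone mouse is there taken from the 4 WT mice, so calls of these genes there do not rest on replicates in both groups. Within the rRNA-poor libraries, where WT replicate 4 is the only WT mouse and its spread is taken from 2 NPY-tet mice, Loxl1 had -0.64 and Loxl2 0.48. Each set thus holds 1 mouse in one of its groups, and whether the sets differ was not tested.

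Loxl3 and Loxl4 were the minor family members. Loxl3 (chromosome 6, 83011154 to 83029543, plus strand) is needed for palate and spine development in mice. It shares its chromosome with Npy, which lies at 49799690 to 49806487. Loxl3 stood at 3.91, 5.80 and 6.37 CPM in NPY-tet replicates 1 to 3, against 8.63, 7.01, 8.15, 8.06 and 4.85 CPM in WT replicates 1 to 5. All 3 NPY-tet mice lay below 4 of the 5 WT mice, with WT replicate 5 the exception. The log2 fold change was -0.45 (SE 0.24, adjusted p = 0.796 by edgeR). Its fitted value was below 0 in all 23 other fits, but it was -0.26 without NPY-tet replicate 1. Loxl3 overlaps Htra2 on the opposite strand by 1297 bases, and without strand information reads from the shared stretch cannot be told apart. Loxl4 (chromosome 19, 42582421 to 42601252, minus strand), the remaining secreted oxidase, stood at 8.22, 10.9 and 9.95 CPM in NPY-tet skin, against 9.55 to 12.7 CPM in WT skin.

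**Figure D2:**
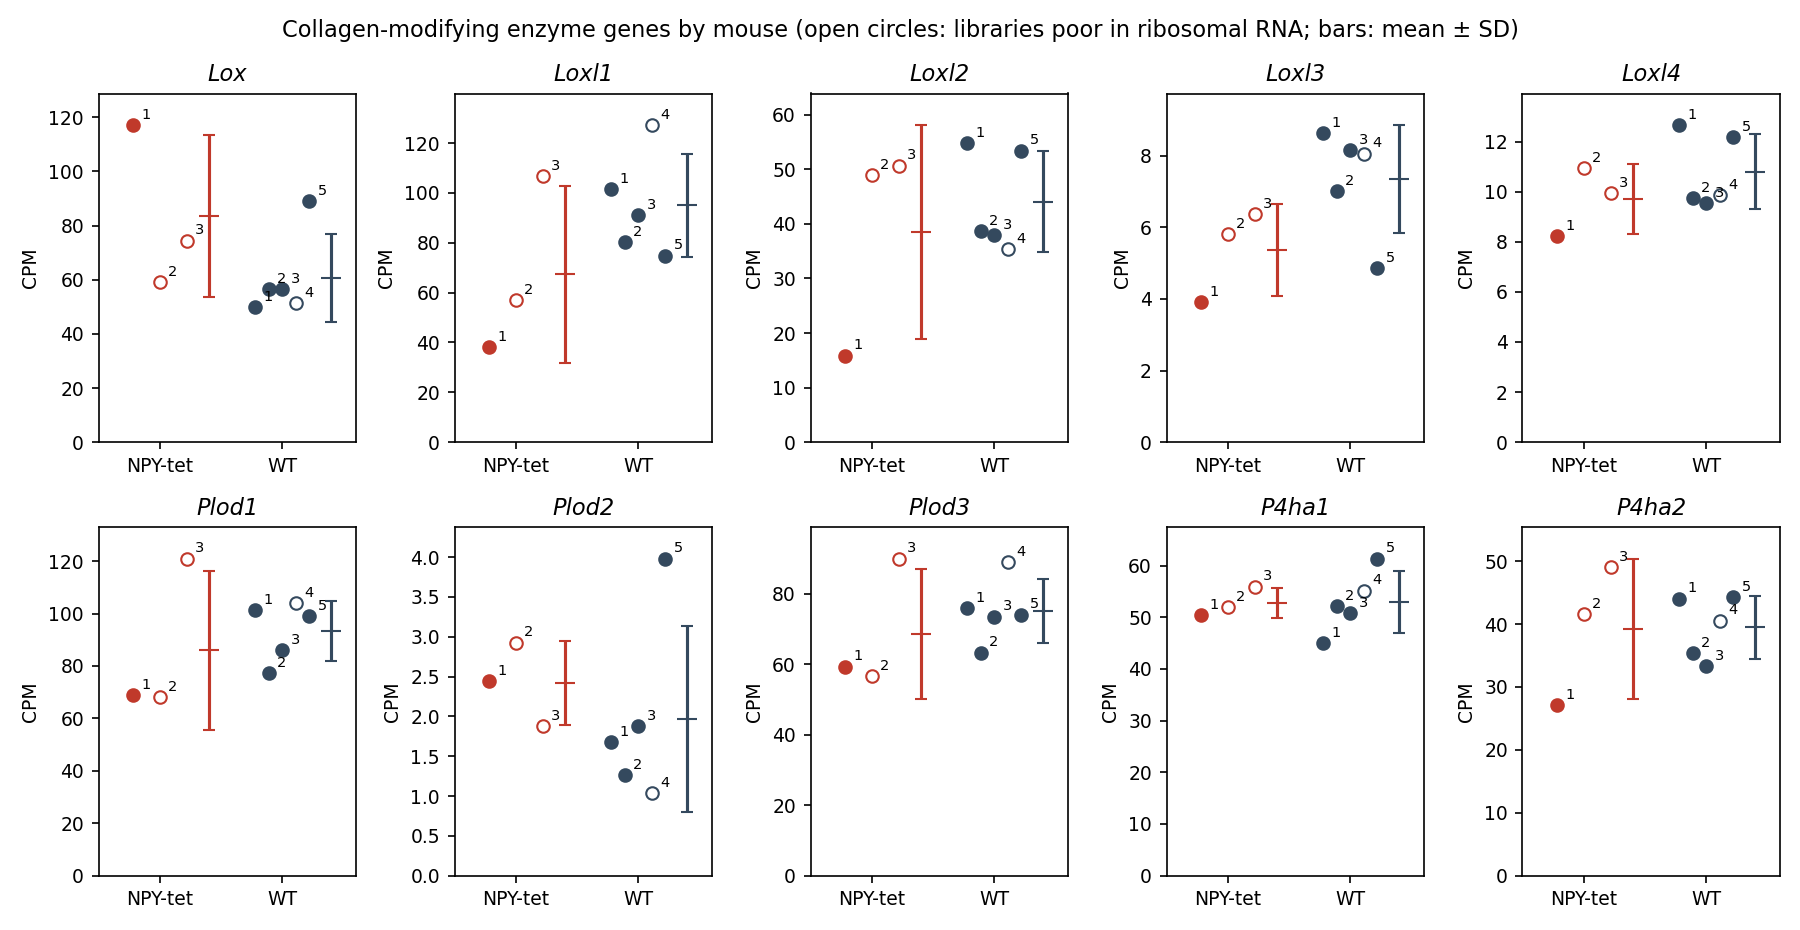
CPM of the 10 enzyme genes in each mouse, with NPY-tet (3 mice) left of WT (5 mice) and replicate numbers beside the points. Bars show mean ± SD, and open circles mark libraries poor in ribosomal RNA. NPY-tet replicate 1 has the highest Lox value (117 CPM) and the lowest Loxl1, Loxl2, Loxl3, Loxl4 and P4ha2 values.

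The make-up of the lysyl oxidase family was compared on FPKM, which divide counts by gene length. Loxl1 and Lox together supplied most of it in every mouse. Loxl1 held 27.7%, 40.5% and 53.0% of the family's FPKM in NPY-tet replicates 1 to 3, against 41.1% to 64.3% in WT skin. Lox held 58.6%, 29.1% and 25.5% in NPY-tet replicates 1 to 3, against 17.9% to 33.8% in WT skin. Only in NPY-tet replicate 1 did Lox outrank Loxl1 among these 8 mice. Loxl2 held 7.01%, 21.3% and 15.3% in NPY-tet skin, against 10.9% to 18.0% in WT skin, and Loxl3 and Loxl4 each held at most 6.11% in any mouse. The family's sum was 41.3, 42.0 and 60.5 FPKM in NPY-tet replicates 1 to 3, against 46.6 to 59.6 FPKM in WT skin. NPY-tet replicates 1 and 2 thus lay below every WT mouse and NPY-tet replicate 3 above every one.

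**Figure D3:**
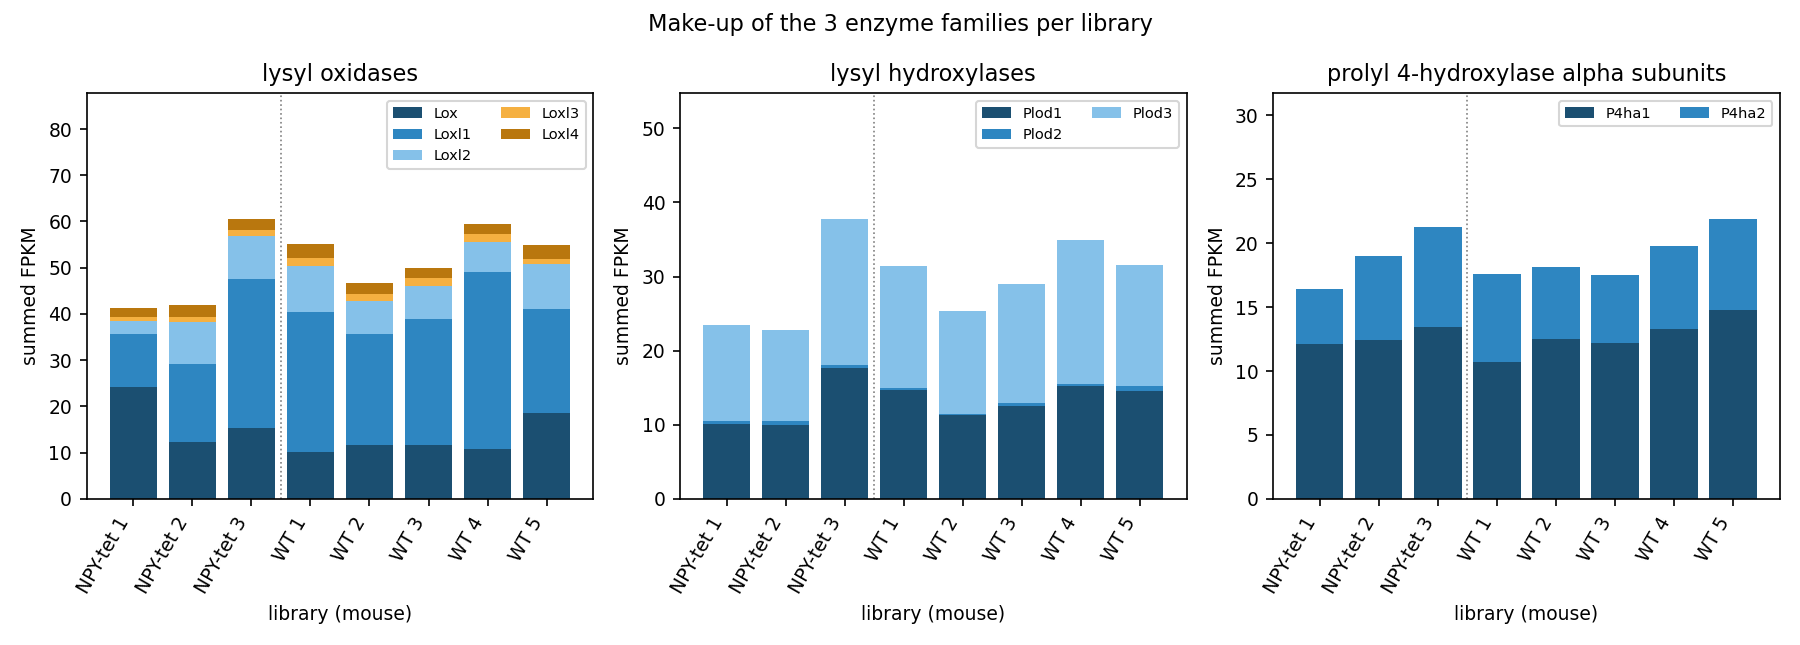
Summed FPKM of the lysyl oxidases, lysyl hydroxylases and prolyl hydroxylase alpha subunits in each mouse, stacked by gene, with NPY-tet libraries left of the dotted line and WT libraries right of it. The Lox segment is 24.2 FPKM in NPY-tet replicate 1 and 10.2 to 18.5 FPKM in WT skin, while the Plod1 and Plod3 segments keep nearly the same proportion throughout.

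The lysyl hydroxylases were led by Plod1 and Plod3, which kept nearly the same proportion to each other. Plod1 encodes lysyl hydroxylase 1, which acts on lysines in the triple helix and is lost in the kyphoscoliotic form of Ehlers-Danlos syndrome in humans. The gene lies on the minus strand of chromosome 4 at 147994210 to 148021224. It stood at 68.8, 68.0 and 121 CPM in NPY-tet replicates 1 to 3, against 101, 77.2, 86.0, 104 and 98.9 CPM in WT replicates 1 to 5. Plod3 (chromosome 5, 137015873 to 137025502, plus strand) encodes an enzyme that also attaches sugars to hydroxylysine. It stood at 59.3, 56.5 and 89.9 CPM in NPY-tet replicates 1 to 3, against 75.8, 63.2, 73.4, 88.9 and 74.0 CPM in WT replicates 1 to 5. For both genes NPY-tet replicates 1 and 2 lay below every WT mouse and NPY-tet replicate 3 above every one. The log2 fold changes were -0.12 (SE 0.19) for Plod1 and -0.13 (SE 0.17) for Plod3. Without NPY-tet replicate 3 they were -0.45 for Plod1 and -0.37 for Plod3 (adjusted p 0.248 and 0.306 by edgeR). Without NPY-tet replicate 1 they were 0.021 and -0.030, and without NPY-tet replicate 2 they were 0.022 and -0.0084. Plod3 overlaps Znhit1 on the opposite strand by 1003 bases, which unstranded reads do not separate.

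Plod1 held 42.8% to 46.9% of the family's FPKM in NPY-tet skin, against 43.4% to 46.7% in WT skin, and Plod3 held 52.2% to 55.2%, against 51.6% to 55.8%. Over the 8 mice their log2 CPM profiles, each centred on its own mean, lay a root mean square distance of 0.088 apart, the smallest among the 45 pairs of the 10 genes. Their promoters are shown because the profiles moved together, as the 250 bases before the RefSeq start (build GRCm38.p6), written 5′ to 3′ on the gene's strand. Capitals mark ACGTG or GCGTG, the core letters bound by hypoxia-inducible factors, on either strand.
Plod1, chr4:147936777-147937026, minus strand: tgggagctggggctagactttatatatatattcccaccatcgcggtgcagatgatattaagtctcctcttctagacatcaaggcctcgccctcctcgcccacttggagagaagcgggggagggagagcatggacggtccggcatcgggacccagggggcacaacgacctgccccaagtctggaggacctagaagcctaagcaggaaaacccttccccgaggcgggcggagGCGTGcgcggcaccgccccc
Plod3, chr5:136986769-136987018, plus strand: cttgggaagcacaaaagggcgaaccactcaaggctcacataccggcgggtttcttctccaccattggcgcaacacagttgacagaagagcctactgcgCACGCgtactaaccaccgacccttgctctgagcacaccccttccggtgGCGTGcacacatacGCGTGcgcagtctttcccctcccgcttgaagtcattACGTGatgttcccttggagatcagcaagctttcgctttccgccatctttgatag

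The Plod1 window held 1 such core and the Plod3 window 4. At least 1 of them occurs in 38.6% of the 32851 promoter windows of the table. Plod1 also held 2 GC boxes (GGGCGG, in 32.7% of windows) and 1 TATAAA (12.4%) but no CCAAT (33.8%), whereas Plod3 held 1 CCAAT and neither of the others. These letters describe the windows and do not show that a factor binds there.

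Plod2 encodes the hydroxylase of the collagen telopeptides, whose product sets the hydroxylysine-derived crosslinks typical of fibrotic tissue. Its locus is chromosome 9, 92424276 to 92490481, plus strand. It was the least abundant of the 10 genes, with 50 to 119 counts per library, so counting error weighs more here than for the others. It stood at 2.45, 2.93 and 1.87 CPM in NPY-tet replicates 1 to 3, against 1.68, 1.27, 1.88, 1.04 and 3.98 CPM in WT replicates 1 to 5. NPY-tet replicates 1 and 2 exceeded all WT mice but WT replicate 5, which was the highest of the 8. The log2 fold change was 0.30 (SE 0.42, adjusted p = 0.892 by edgeR), and 0.73 without WT replicate 5. Plod2 made up 0.912% to 2.35% of the lysyl hydroxylase FPKM in NPY-tet skin, against 0.547% to 2.33% in WT skin.

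The prolyl hydroxylase subunits had the smallest differences between the groups. P4ha1 encodes the main catalytic alpha subunit of most tissues (chromosome 10, 59159118 to 59209126, plus strand). It stood at 50.4, 51.9 and 55.9 CPM in NPY-tet replicates 1 to 3, against 45.0, 52.2, 50.9, 55.1 and 61.3 CPM in WT replicates 1 to 5. All 3 NPY-tet mice lay inside the WT range, and the coefficient of variation over the 8 mice was 9.02%, the smallest of the 10 genes and below the median of 21.2% over all genes tested. The log2 fold change was -0.0053 (SE 0.13). P4ha2, the second alpha subunit (chromosome 11, 53990921 to 54022491, plus strand), stood at 27.1, 41.5 and 49.0 CPM in NPY-tet replicates 1 to 3, against 44.0, 35.4, 33.3, 40.5 and 44.3 CPM in WT replicates 1 to 5. NPY-tet replicate 1 was the lowest and NPY-tet replicate 3 the highest of the 8, and the log2 fold change was -0.01 (SE 0.18). P4ha1 held 73.8%, 65.5% and 63.4% of the alpha subunit FPKM in NPY-tet replicates 1 to 3, against 60.8% to 69.9% in WT skin. P4hb, the protein disulfide isomerase that forms the beta subunit, averaged 452 ± 97.4 CPM in NPY-tet skin and 485 ± 42.2 CPM in WT skin. P4ha3, the third alpha subunit gene, was too low to be tested.

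The upstream windows of P4ha1 and P4ha2 are shown in the same way, because both encode alternative alpha subunits of the same enzyme. Their coefficients of variation over the 8 mice were 9.02% for P4ha1 and 17.9% for P4ha2.
P4ha1, chr10:59323046-59323295, plus strand: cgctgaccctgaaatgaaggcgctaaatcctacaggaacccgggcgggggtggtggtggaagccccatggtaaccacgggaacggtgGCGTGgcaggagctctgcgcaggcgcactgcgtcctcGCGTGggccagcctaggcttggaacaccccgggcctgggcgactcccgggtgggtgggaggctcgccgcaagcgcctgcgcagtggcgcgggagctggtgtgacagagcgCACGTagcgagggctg
P4ha2, chr11:54100674-54100923, plus strand: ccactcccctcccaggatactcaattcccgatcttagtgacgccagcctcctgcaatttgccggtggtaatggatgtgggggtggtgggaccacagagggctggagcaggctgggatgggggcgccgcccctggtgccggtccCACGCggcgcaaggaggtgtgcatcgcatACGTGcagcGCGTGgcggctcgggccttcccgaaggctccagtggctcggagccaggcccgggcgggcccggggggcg
Both windows held 3 cores, of which 1 was ACGTG, a form found in 16.6% of all windows, and 2 were GCGTG, found in 28.2%. Neither window held TATAAA.

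Per length, both groups had the same leading gene and the same order from rank 6 down, while ranks 2 to 5 differed in part. In NPY-tet skin Loxl1 led at 20.2 ± 10.7 FPKM, followed by Lox, Plod3, P4ha1 and Plod1 at 17.3 to 12.6 FPKM, and in these 5 each gene overlapped with the next. In WT skin Loxl1 led at 28.5 ± 6.23 FPKM without overlap with the next gene, followed by Plod3, Plod1, P4ha1 and Lox at 16.4 to 12.6 FPKM, which overlapped in turn. Below them, in both groups, came Loxl2 and P4ha2, which overlapped with each other, and then Loxl4, Loxl3 and Plod2, which did not. Lox took rank 2 in NPY-tet skin and rank 5 in WT skin, and its NPY-tet level was highest in NPY-tet replicate 1, at 24.2 FPKM against 12.2 and 15.4 FPKM in NPY-tet replicates 2 and 3.

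The fibrillar collagen genes had coefficients of variation over the 8 mice of 60.2% (Col1a1), 56.5% (Col1a2) and 49.8% (Col3a1), against 9.02% to 44.8% for the enzymes, and NPY-tet replicate 1 had the lowest value of each. Col1a1, the main chain of type I collagen, stood at 423, 5670 and 10022 CPM in NPY-tet replicates 1 to 3, against 7105, 3269, 3592, 3809 and 9146 CPM in WT replicates 1 to 5. NPY-tet replicate 1 was thus at 0.0746 times the median of the other 7 mice, and Col1a2 (0.0840) and Col3a1 (0.0852) were similarly placed. NPY-tet replicate 3 had the highest Col1a1 value of the 8. None of the 3 genes passed the test between the groups (smallest adjusted p 0.990 by edgeR). In bulk skin, fewer collagen-producing cells and less collagen RNA per cell cannot be told apart. The 10 fibroblast markers include Col1a1 and Col3a1, so their sum and their mean partly restate these collagen values. They summed to 2392, 12356 and 17548 CPM in NPY-tet replicates 1 to 3, against 7925 to 16488 CPM in WT skin. Their part in the enzyme values of NPY-tet replicate 1 was not tested. The mean log2 CPM of the 10 markers was 6.77 in that mouse. It was 7.96 and 8.01 in NPY-tet replicates 2 and 3 and 7.72 to 8.07 in WT skin. Single markers differed there, with Lum at 0.363, Dpt at 0.473, the proteoglycan gene Dcn at 0.931 and the receptor gene Pdgfra at 1.05 times the median of the other 7. These were picked after their values were seen, and the remaining markers are not given singly.

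In that mouse the enzymes kept much more of their level than Col1a1, Col1a2 and Col3a1, but not more than every collagen. The other collagen chains among the substrates stood at 0.157 (Col5a3) to 0.597 (Col4a1) times the median of the other 7 mice. That range includes the values of Loxl1, Loxl2 and Loxl3. P4ha1 stood at 0.965, Loxl4 at 0.826, Plod3 at 0.801, Plod1 at 0.696 and P4ha2 at 0.653 times the median of the other 7 mice. Loxl3 (0.558), Loxl1 (0.419) and Loxl2 (0.324) stood lower, and Lox (2.07) and Plod2 (1.31) stood higher. NPY-tet replicate 1 held the lowest value of 5 of the 10 enzyme genes and the highest of 1, whereas it held the lowest value of 18.4% and the highest of 18.2% of all genes tested.

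**Figure D4:**
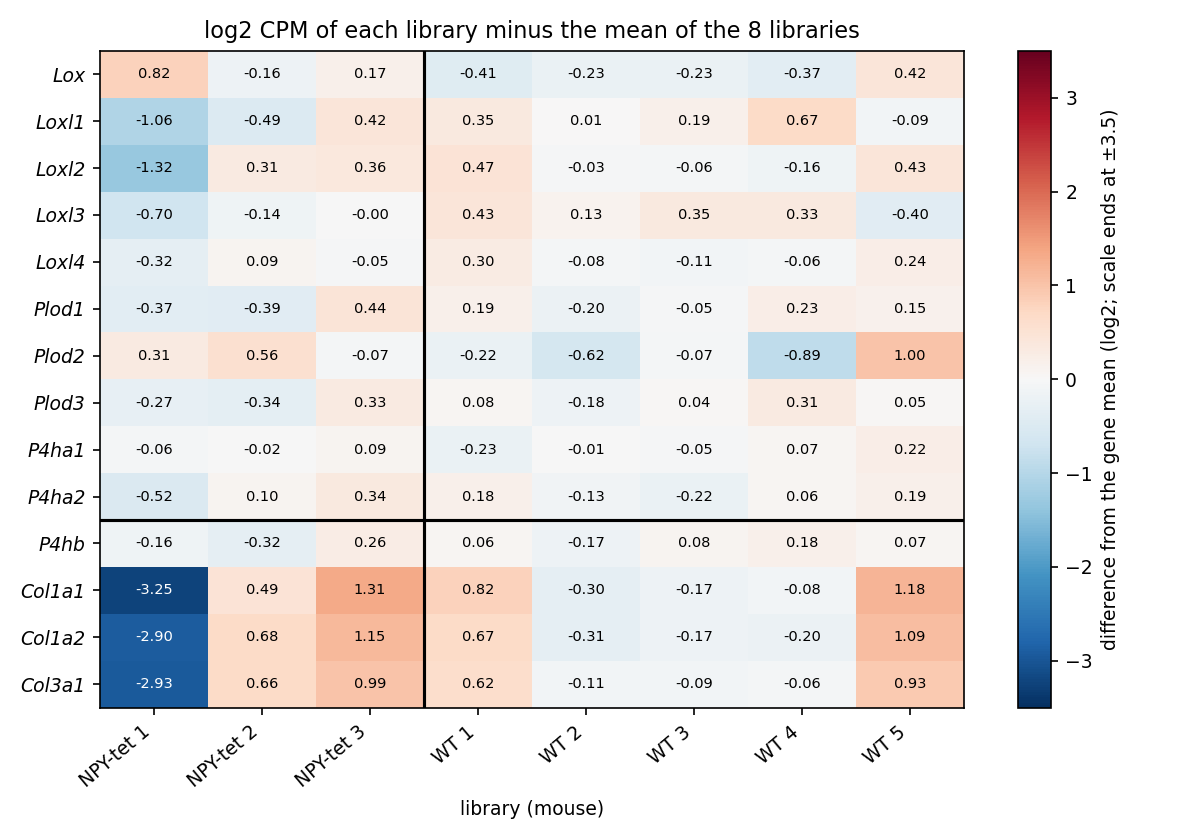
Difference of each library from the mean of the 8 libraries, in log2 CPM, for the 10 enzyme genes (above the line) and for P4hb, Col1a1, Col1a2 and Col3a1 (below it), with NPY-tet libraries left of the vertical line and WT libraries right of it. Col1a1 lies at -3.25 in NPY-tet replicate 1, where Loxl2 lies at -1.32, P4ha1 at -0.064 and Lox at 0.82.

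Set against the collagen they process, the enzymes therefore stood in different proportion in different mice. The summed FPKM of Col1a1, Col1a2 and Col3a1 was 139.6, 1764 and 2721 in NPY-tet replicates 1 to 3, against 987 to 2554 in WT skin. Per 1000 FPKM of this collagen sum, Lox stood at 173, 6.93 and 5.67 FPKM in NPY-tet replicates 1 to 3, against 5.23 to 11.8 FPKM in WT skin. P4ha1 stood at 86.6, 7.05 and 4.94 FPKM per 1000, against 5.50 to 12.7, and Plod1 at 72.0, 5.62 and 6.50 FPKM per 1000, against 5.69 to 13.9. NPY-tet replicate 1 lay above every other mouse for all 10 enzymes by this measure. Its low collagen sum is the divisor here, so this ranking restates that low sum. It placed even Loxl1, Loxl2 and Loxl3 on top, whose CPM were lowest in that mouse. Lox in NPY-tet replicates 2 and 3 lay inside the WT range, while P4ha1 in NPY-tet replicate 3 and Plod1 in NPY-tet replicate 2 lay just below it.

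**Figure D5:**
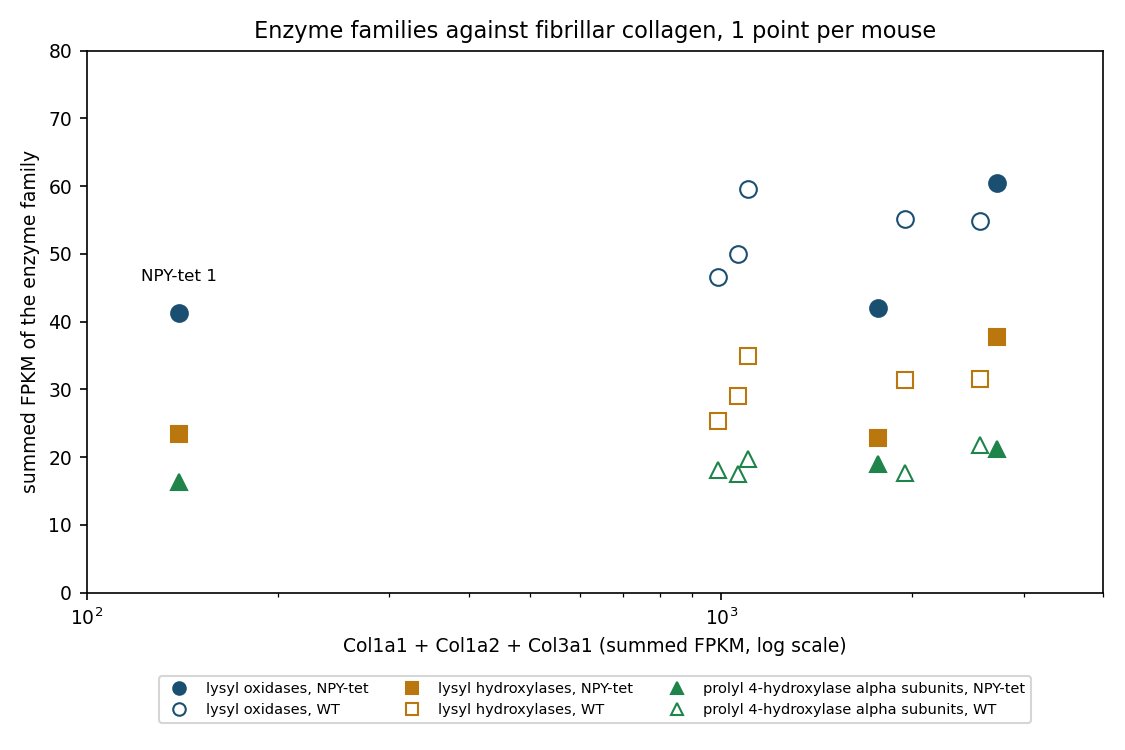
Summed FPKM of each enzyme family against the summed FPKM of Col1a1, Col1a2 and Col3a1 (log scale), 1 point per mouse and family, filled for NPY-tet and open for WT. NPY-tet replicate 1 lies far left at 139.6 FPKM of collagen, with 41.3 FPKM of lysyl oxidases and 16.4 FPKM of prolyl hydroxylase subunits, the lowest of the 8 mice for both families by a small margin.

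Other genes of the pathway were read from lists chosen by function. Among partners in hydroxylation, glycosylation and folding, 0 of 19 tested genes passed in either direction by edgeR and 0 had an unadjusted p under 0.05, with a median log2 fold change of -0.10. That median was 0.12 without NPY-tet replicate 1 and -0.28 without NPY-tet replicate 3. The smallest p belonged to the folding enzyme gene Pdia4, with a log2 fold change of -0.23 (SE 0.14). Pdia4 lies on chromosome 6 at 47773075 to 47790364, closer to Npy than Loxl3 does. Serpinh1, the collagen chaperone, averaged 350.1 ± 193 CPM in NPY-tet skin and 387 ± 55.7 CPM in WT skin, and in NPY-tet replicate 1 it stood at 0.413 times the median of the other mice. Tmem38b and Crtap, both needed for collagen modification in the endoplasmic reticulum, had log2 fold changes of 0.34 (SE 0.22) and -0.17 (SE 0.14). For export and propeptide cleavage 0 of 16 passed, with a median of -0.08. Kdelr2, a retrieval receptor of the endoplasmic reticulum, stood at 56.9 ± 6.07 CPM in NPY-tet skin and 68.4 ± 7.81 CPM in WT skin (adjusted p = 0.795 by edgeR). Its groups did not overlap, as was so for 3.78% of all genes tested (1.98% lower in NPY-tet skin).

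Among scaffolds, activators and copper suppliers of the lysyl oxidases, 0 of 13 passed, with a median of -0.07. Fibronectin, Fn1, which helps to activate lysyl oxidase, averaged 375 ± 239 CPM in NPY-tet skin and 681 ± 170.1 CPM in WT skin, a log2 fold change of -0.86 (SE 0.40, adjusted p = 0.795 by edgeR). NPY-tet replicate 1 had the lowest Fn1 value, at 154 CPM or 0.261 times the median of the other 7 mice, and the groups overlapped. The fibulin gene Efemp2, whose product tethers lysyl oxidase to elastic fibres, averaged 18.6 ± 5.50 CPM in NPY-tet skin and 24.8 ± 4.21 CPM in WT skin. The copper pump gene Atp7a averaged 10.4 ± 3.13 CPM in NPY-tet skin and 11.7 ± 4.24 CPM in WT skin. Among substrates 0 of 13 passed, with a median of -0.25. It was 0.017 without NPY-tet replicate 1 and -0.74 without NPY-tet replicate 3. It was -0.57 by limma-voom, -0.88 with the ribosomal RNA set as covariate, -1.65 in rRNA-rich libraries alone and 0.013 in rRNA-poor ones alone. The smallest p there belonged to Fbn1, Col5a3 and Col6a3, with log2 fold changes of -0.49, -0.86 and -0.51. Of 8 other crosslinking enzymes 0 passed, among them the peroxidasin gene Pxdn, which crosslinks basement membrane collagen, at 112 ± 39.1 CPM in NPY-tet skin and 147 ± 13.6 CPM in WT skin, and the transglutaminase gene F13a1.

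The lists of ascorbate and ketoglutarate supply (0 of 10 passed, median -0.08), hypoxia-inducible factor targets (0 of 15 passed, median 0.13) and TGF-beta response genes (0 of 13 passed, median 0.09) likewise held no gene past the adjusted threshold by edgeR. The hypoxia median was -0.063 when NPY-tet replicate 1 was left out, 0.298 when replicate 2 was left out, and -0.12 with the fibroblast score as covariate. The TGF-beta median was 0.19 without NPY-tet replicate 1 and -0.054 without NPY-tet replicate 3, so neither list kept its sign. At an unadjusted p under 0.05, which 2.43% of all genes reached as higher and 3.55% as lower, there was 1 lower gene in the first list, Idh1, and 1 higher and 1 lower in the second, Adm and Ndrg1. Adm, the vasodilator peptide gene adrenomedullin, stood at 10.5 ± 5.93 CPM in NPY-tet skin and 4.23 ± 1.47 CPM in WT skin (log2 fold change 1.31, SE 0.36, adjusted p = 0.594 by edgeR). NPY-tet replicate 1 had the most Adm, at 16.9 CPM. The hypoxia targets went both ways in that mouse, which held the highest value of 18.2% of all genes tested. Vegfa and Ero1a stood at 2.19 and 2.12 times the median of the other 7, with Egln3 (1.86) and Bnip3 (1.70) also above it. Ldha stood at 0.380 times, with Pdk1 (0.675) and Pgk1 (0.747) also below it.

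The genes whose profiles over the 8 mice lay closest to those of the enzymes were sought among the 9904 genes that averaged 10 CPM or more, by the root mean square distance of centred log2 CPM. For Lox these were Ssh2 and Fmn1, 2 genes of actin regulation, at distances of 0.13 and 0.14 on the log2 scale, against a median distance of 0.46 from Lox to all of them. Loxl2 lay closest to Cdh4 (0.15) and to the fibrillar collagen gene Col5a2 (0.15), and P4ha2 lay close to Cpxm2 (0.085) and to Pcolce2, a helper of procollagen cleavage (0.087). Loxl1 lay closest to Slc25a1 and Pygb, Loxl3 to Pdgfb and Phldb1, Loxl4 to Tril and Naa40, Plod1 to Tbcd and Tmed3, and Plod3 to Pigs and Arf5. P4ha1 lay closest to Sh3d19 and Lsg1, and Plod2 lay closest to Kalrn and Ppif at 0.22 and 0.24, against a median distance of 0.62. These distances grow with the spread of the gene itself. Within the 10 genes the farthest pair was Loxl1 and Plod2, at 0.98.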

How the data were processed

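RNA of whole skin from 8 mice was captured with poly-T beads and sequenced without strand information, per the labels. The deposited count table gives integers for each Ensembl gene. The deposited FPKM table divides these by gene length and by 1 effective size per library, as its values show. Per the submitters' processing notes the tools were featureCounts 1.5.0-p3, HISAT2 2.0.5, CASAVA and DESeq2 1.20.0, with build mm39 and no roles stated. Columns were joined to mice by name. For samples 3 to 8 the mouse number in the description exceeds that in the title by 1, while the genotype is unchanged.

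Counts of all genes were tested with edgeR 4.0.16 in R 4.3.3 (filterByExpr, TMM, robust quasi-likelihood F-test, two-sided, Benjamini-Hochberg over 18495 genes, threshold 0.05). Each SE is that fold change, unsigned, over the root of its F statistic. CPM are TMM-scaled. Alternatives used DESeq2 1.42.0, limma 3.58.1 on FPKM and voom, and other filters, covariates and libraries. Procedures were tested on simulated data. The named genes are the 10 enzymes, P4hb and the chains Col1a1, Col1a2 and Col3a1, up to 3 genes of smallest p per list, and the 2 nearest profiles per enzyme. Atp7a, Serpinh1, Col4a1, Vegfa, Ero1a, Egln3, Bnip3, Pdk1, Pgk1, Pdgfra, Dcn, Lum, Dpt, Htra2 and Znhit1 were named after their values were seen. The members and lists were chosen with earlier results of these data known. Promoters come from RefSeq (GRCm38.p6) and matched 5 of 10 members. One list symbol, Ca9, had no row in the table. Each interval gives the uncertainty of a fitted fold change between the groups, and it does not span the values of single mice.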

Additional observations from a re-analysis of the deposited data

Results flagged for a closer look

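Lox stood at 89.1 CPM in WT replicate 5, far from the other WT mice at 49.8 to 56.6 CPM. Plod2 stood at 3.98 CPM in the same mouse, against 1.04 to 1.88 CPM in the other WT mice. The third value is the ribosomal RNA share of WT replicate 4, at 0.0641% of counts, against 7.02% to 8.07% in the other WT mice. Chance alone sets such a gap in about 1 in 20 groups, and 12 measures were examined in the WT group. The NPY-tet group, with 3 mice, was too small for this check. Hair shaft markers were also highest in WT replicate 5, at 6116 CPM against 9.16 to 305 CPM in the other WT mice, and their part in the Lox and Plod2 values was not tested.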

How the results depend on the processing

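Of the fold changes of the 10 enzymes recomputed under 23 alternatives, 202 kept their direction and their side of the threshold, 26 changed sign and 2 became called. The genes called across the table numbered 1, and 21 with no filter on low counts, 61 by DESeq2, 3 by limma-voom, 2, 2 and 4 by limma on FPKM (pseudocounts 1 and 0.1, and no filter), 11 with the ribosomal RNA set as covariate, 91 using rRNA-poor libraries alone, 314 using rRNA-rich ones, and 1 to 8 when each library was left out (8 without NPY-tet replicate 3). The called enzymes numbered 0 throughout, except for 2 within the rRNA-rich libraries. Sign changes touched 5 enzymes. P4ha1 had 0.0053 with a mean of at least 1 CPM, 0.00038 by limma-voom, 7.1e-05 on log2(FPKM + 0.1), 0.022 with the fibroblast score and -0.058 to 0.053 when each library was left out. P4ha2 had 0.15 in the rRNA-poor libraries, 0.17 and 0.023 with the fibroblast and muscle scores, and -0.20 to 0.20 across libraries left out. Loxl2 had 0.48 (rRNA-poor), 0.079 (fibroblast score) and -0.44 to 0.18, Loxl4 0.075 (rRNA-poor), and Plod1 0.0078 (fibroblast score) and -0.45 to 0.022. The cause was not tested. Same-numbered mice were not paired in the main fit. Deviations of same-numbered replicates 1, 2 and 3 correlated across genes at 0.0398, -0.0057 and 0.211, and those of differently numbered mice at -0.218 to 0.218. These values do not show whether any mice shared a batch. With the replicate block the count was 1 gene and 0 enzymes, and P4ha1 and P4ha2 had 0.096 and 0.034. The same 6 libraries without the block, a fit added after seeing the data, gave 0.095 and 0.063. Plod2 rests on the fewest counts, 50 to 119 per library. With the replicate block the hypoxia list had a median of -0.042.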
